A study of Brassica rapa subsp. pekinensis with 4 samples.

Results

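Genes used as internal references in plant qPCR were followed through vernalization, the long cold exposure that makes a plant competent to flower, in shoots of the early-bolting Chinese cabbage (Brassica rapa subsp. pekinensis) inbred line “4004”. The members were all B. rapa genes (Bra identifiers) whose deposited Arabidopsis match, with the version suffix dropped, was 1 of 10 loci. These were ACT2 (AT3G18780), ACT7 (AT5G09810), ACT8 (AT1G49240), GAPC1 (AT3G04120), UBQ10 (AT4G05320), EF1A (AT5G60390), PP2AA3 (AT1G13320), TIP41-like (AT4G34270), SAND (AT2G28390) and UBC21 (AT5G25760). The rule found 15 copies among the 36698 genes listed, and all 15 passed the filter on low values that 29691 genes passed. There were 3 copies of ACT7, 2 copies each of ACT2, GAPC1, EF1A, SAND and UBC21, and 1 copy each of UBQ10 and TIP41-like. No gene had ACT8 or PP2AA3 as its match, so 8 of the 10 loci could be described.

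Poly(A) RNA of shoots was sequenced in 2 libraries without cold (0D Ver) and 2 libraries after 35 days of cold (35D Ver), each made from the shoots of 5 plants. Growth was at 23 °C under 16 h of daily light in both groups, and the cold room had 5 °C and 12 h. The labels give an age of 2 weeks for 0D Ver and 7 weeks for 35D Ver, whereas the methods start the cold 1 week after sowing, and cold, age and day length cannot be told apart in this design. The deposited numbers summed to between 17221386 and 23428420 per library. They were divided by TMM size factors (trimmed mean of M-values, which sets the bulk of genes equal between libraries) to give normalized counts. The chi-square per degree of freedom was 9.30 and 10.2 between replicates, above sampling noise, and 71.3 to 80.4 between conditions. Tests were made with limma on log2(normalized count + 1) with Benjamini-Hochberg adjustment over the 29691 genes, because an exact permutation test of 2 against 2 libraries cannot give a two-sided p below 0.333.

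The shoot label was checked with marker genes. The 11 genes matching 5 leaf photosynthesis loci (RBCS1A, LHCB1.3, LHCA1, RCA and GAPB) summed to 572652 and 564571 normalized counts under 0D Ver and to 834969 and 673426 under 35D Ver, with 6 genes higher and 2 lower by limma. The largest terms were the LHCB1.3 genes Bra010807, Bra030181 and Bra030182, with 0D Ver means of 136949, 146880 and 113245. Genes called higher matched LHCB1.3 (Bra010807 and Bra030182), RCA and GAPB. The 2 called lower were the LHCA1 copies Bra003198 (-0.60) and Bra007109 (-0.74), and no RBCS1A copy was called. The 5 genes matching root hair loci (EXP7, PRP3 and LRX1; COBL9 had none) summed to between 11.9 and 14.6 in every library, and the 4 seed storage genes (CRA1, CRC and OLEO2) to between 4.56 and 7.33. Each seed storage gene had at most 3 deposited counts in every library. The 7 genes matching the floral organ loci AG, AP3 and PI summed to 64.8 and 53.7 under 0D Ver and to 86.1 and 77.5 under 35D Ver, and all 3 PI copies were called higher. The floral sum was higher through PI alone, since the 2 AP3 copies had lower means under 35D Ver without overlap (11.1 to 5.03 in Bra007067, which was not tested, and 14.4 to 8.68 in Bra014822, which was not called) and the 2 AG copies overlapped between conditions. The leaf and floral sums therefore moved with the condition, and their part in the results below was not tested. In bulk shoot RNA, a change in the share of a cell type and a change in the amount of RNA per cell cannot be told apart.

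A reference gene is used in qPCR to divide out differences in the amount and quality of RNA between samples, so a value normalized to it also carries any change of the reference itself. ACT2, ACT7 and ACT8 encode actins, the subunits of actin filaments. GAPC1 encodes a cytosolic glyceraldehyde-3-phosphate dehydrogenase of glycolysis, and EF1A the translation elongation factor that brings aminoacyl-tRNA to the ribosome. UBQ10 encodes a polyubiquitin and UBC21 a ubiquitin-conjugating (E2) enzyme. PP2AA3, TIP41-like and SAND encode a scaffold subunit of protein phosphatase 2A, a relative of the yeast TOR pathway protein TIP41 and a protein of the SAND (MON1) family. The latter group and UBC21 came into use in Arabidopsis because their transcripts varied little over many conditions.

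The qPCR of the study used an actin gene called BrACT2, Bra022356, as its internal control. The deposited match of Bra022356 is AT2G42170, not the ACT2 locus, and it is the only gene with that match. It is therefore not 1 of the 15 copies, and its values are given beside theirs. Its primers are shown because all of the qPCR was scaled to the product they amplify. They come from the primer list of the study and are printed from 5′ to 3′ in lower case, each 23 bases long.
BrACT2 forward: atggtgttatggttgggatgaac
BrACT2 reverse: aagaggagcctcggtaagaagaa
Where these primers lie in Bra022356, and whether they also match other actin genes, was not analysed here.

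The control gene Bra022356 was higher after the cold. Its normalized count was 7326 and 6825 in 0D Ver replicates 1 and 2, and 9676 and 9904 in 35D Ver replicates 1 and 2. The conditions did not overlap, and the mean went from 7076 ± 354 (SD, n = 2) to 9790 ± 161 (SD, n = 2). The log2 fold change was 0.47 with a standard error of 0.11, a 95% interval of 0.21 to 0.73 and an adjusted p of 0.0113 by limma. It was 0.52 without 0D Ver replicate 1 and 0.42 without 0D Ver replicate 2, and the adjusted p was then 0.0532 and 0.0932. Its coefficient of variation (CV, the SD over the 4 libraries as a percent of their mean) was 18.8%, rank 5749 from the lowest among the 8983 genes with a mean normalized count of at least 500.

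Of the 15 copies, 8 were called higher under 35D Ver at an adjusted p below 0.05 by limma and 0 were called lower. At an unadjusted p below 0.05 the counts were 10 and 1. Among all 29691 tested genes, 40.6% were called in either direction, 20.1% higher and 20.5% lower. Among the 8983 genes with a mean of at least 500, a level that 12 of the 15 copies reached, 45.1% were called and 26.1% were called higher. The median log2 fold change of the copies was 0.39, against -0.01 over all tested genes and 0.05 over those with a mean of at least 500. No copy had an absolute log2 fold change of at least 1 with an adjusted p below 0.05 by limma. That was met by 13.7% of all tested genes, and by 674 of the 8983 with a mean of at least 500. The median absolute log2 fold change of the copies was 0.39. It was 0.36 over all tested genes and 0.30 over those with a mean of at least 500. The conditions did not overlap for 14 copies, with the 35D Ver libraries as the upper pair for 13 and the lower pair for 1, and they overlapped for 1 copy. The shares with 35D Ver as the upper and the lower pair were 36% and 37.1% of all tested genes, and 42.6% and 32.9% of the genes with a mean of at least 500.

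**Figure D1:**
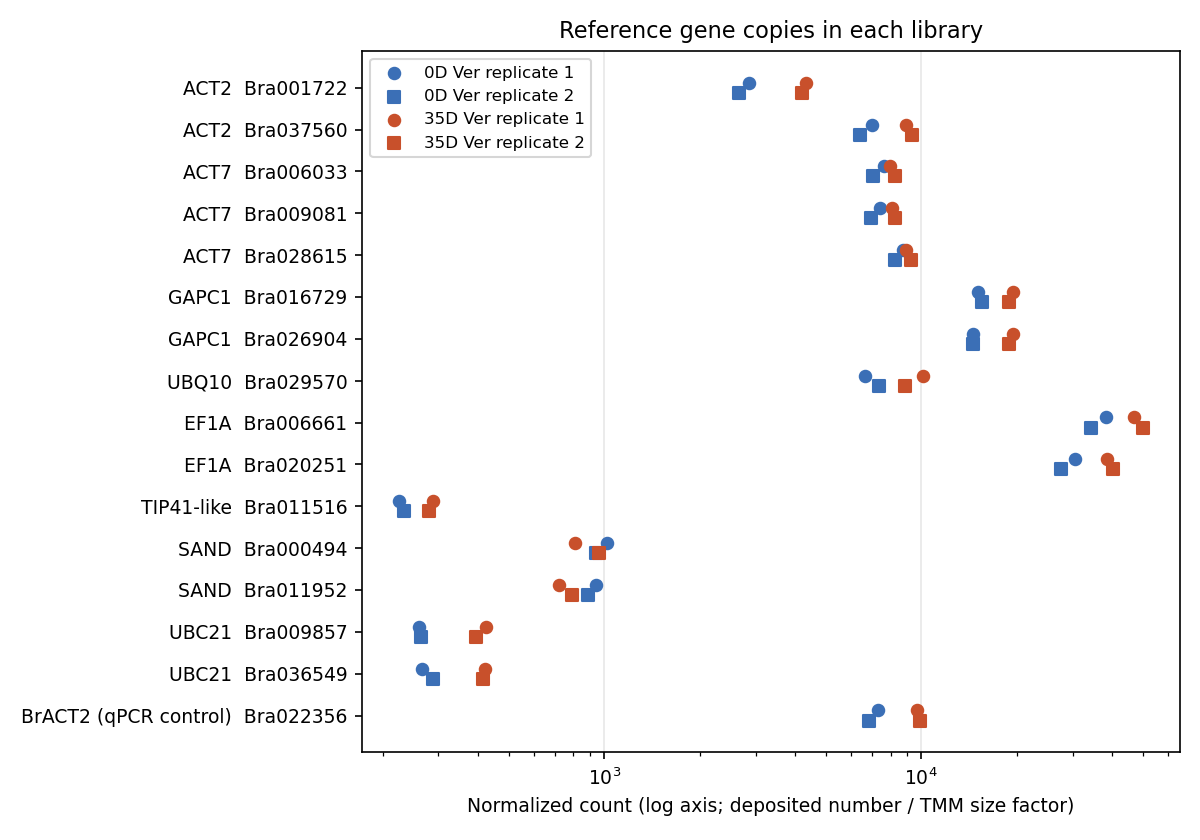
Normalized count (x axis, log scale) of each of the 15 reference copies and of the qPCR control gene in the 4 libraries, with 1 point per library. The 35D Ver points lie to the right of the 0D Ver points in 13 of the 15 copies, and the 2 SAND copies are the exceptions. Counts are not divided by gene length, so positions compare libraries within a row and not genes with each other.

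A p above the threshold does not show that a gene stayed the same, so the 95% interval of each log2 fold change was also compared with a band from -0.5 to 0.5. The interval lay wholly inside the band for 4 of the 15 copies, namely the 3 ACT7 copies and the SAND copy Bra000494. The same held for 23.8% of all tested genes and for 39.4% of those with a mean of at least 500. No copy had an interval inside a narrower band from -0.3 to 0.3.

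**Figure D2:**
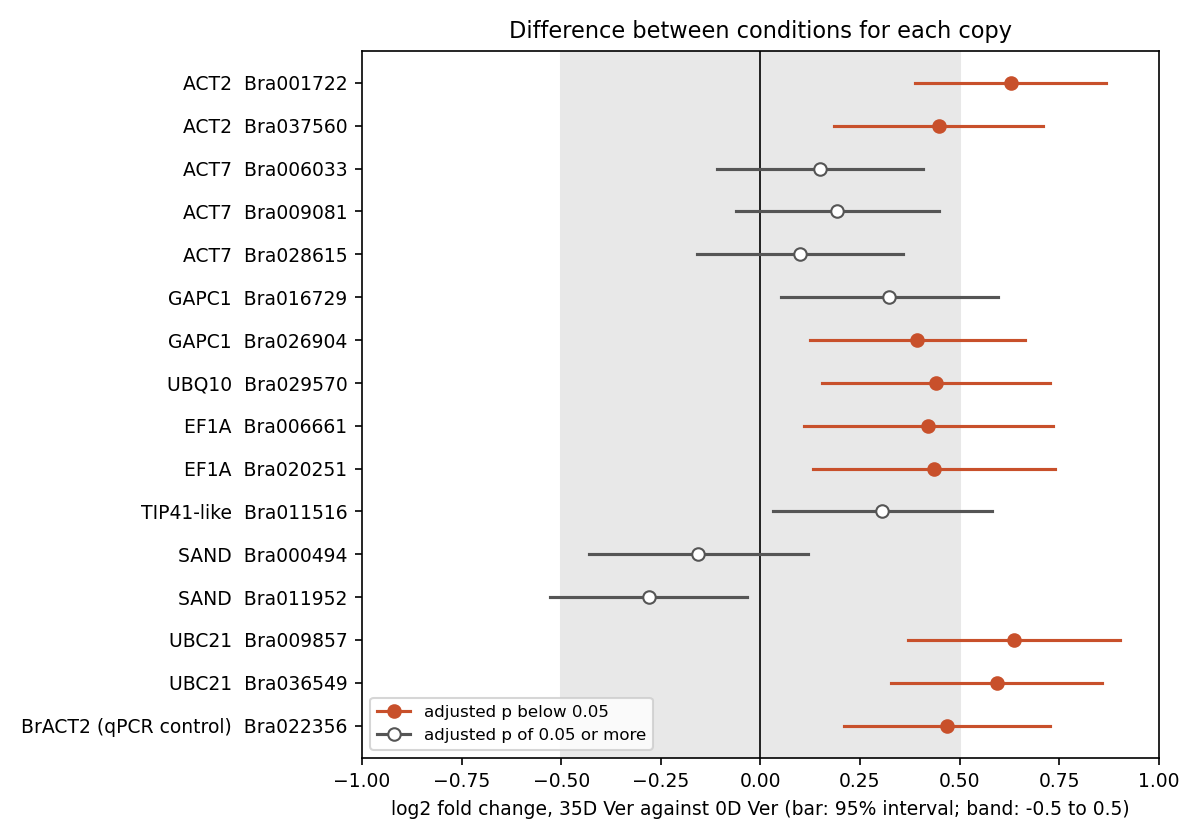
Log2 fold change of 35D Ver against 0D Ver (x axis) with its 95% interval from limma for the 15 copies and Bra022356. Filled points mark an adjusted p below 0.05, and the grey band runs from -0.5 to 0.5. The 8 called copies all lie to the right of 0, and only the intervals of the 3 ACT7 copies and of Bra000494 (SAND) stay within the band.

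Of the actins, both ACT2 copies were called higher after the cold and none of the 3 ACT7 copies was called. The ACT2 copy Bra001722 had normalized counts of 2862 and 2656 under 0D Ver and 4331 and 4193 under 35D Ver. Its condition means, 2759 ± 146 and 4262 ± 97.0 (SD, n = 2 each), lay far apart beside the spread of the replicates. The log2 fold change was 0.63 (standard error 0.11, 95% interval 0.39 to 0.87, adjusted p = 0.00209 by limma). The other ACT2 copy, Bra037560, had 6995 and 6421 under 0D Ver and 8919.5 and 9361 under 35D Ver. It was higher by 0.45 (interval 0.19 to 0.71, adjusted p = 0.0148 by limma), and without 0D Ver replicate 1 or 2 the adjusted p was 0.0564 and 0.114. Bra001722 kept its call in all 15 alternative fits.

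ACT7, the actin of growing vegetative tissue in Arabidopsis, gave 3 of the 4 intervals inside the band. Bra028615 had normalized counts of 8730.1 and 8238 under 0D Ver and 8920.4 and 9268 under 35D Ver, a log2 fold change of 0.10 (interval -0.16 to 0.36, adjusted p = 0.507 by limma). Bra006033 had 7611 and 7031 under 0D Ver and 7977 and 8263 under 35D Ver, a difference of 0.15 (interval -0.11 to 0.41, adjusted p = 0.319 by limma). Bra009081 had 7389 and 6947 under 0D Ver and 8097 and 8287 under 35D Ver, a difference of 0.19 (interval -0.06 to 0.45, adjusted p = 0.199 by limma). In each of the 3 copies both 35D Ver libraries were still the higher ones. The CVs were 4.89%, 6.88% and 8.11%, at ranks 640, 1386 and 1904 of 8983. Whether ACT2 and ACT7 differed in their response was not tested, and the interval of the ACT2 copy Bra037560 overlapped those of all 3 ACT7 copies. The interval of the ACT2 copy Bra001722 (0.39 to 0.87) overlapped those of Bra006033 and Bra009081 and lay above that of Bra028615.

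GAPC1 and EF1A, of glycolysis and of translation, had a higher mean after the cold in every copy, and 3 of their 4 copies were called. The GAPC1 copy Bra026904 had 14551 and 14599.7 normalized counts under 0D Ver and 19419.9 and 18896 under 35D Ver, with replicates that differed by less than the conditions. The log2 fold change was 0.39 (interval 0.12 to 0.66, adjusted p = 0.0279 by limma). Bra016729, the other GAPC1 copy, had 15064 and 15543 under 0D Ver and 19444 and 18869 under 35D Ver. Its difference of 0.32 (interval 0.05 to 0.60) had an adjusted p of 0.0583 by limma, just above the threshold. By limma it was 0.0485 with median-of-ratios scaling, but 0.0862 without robust moderation and 0.169 with a replicate block. Leaving out 1 library gave log2 fold changes of 0.30 to 0.35 for Bra016729. Bra026904 had an adjusted p of 0.144 without 0D Ver replicate 1 and of 0.137 without 0D Ver replicate 2.

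The EF1A copy Bra006661 had 38159.5 and 34236 normalized counts under 0D Ver and 47001 and 49855 under 35D Ver. The log2 fold change was 0.42 (interval 0.11 to 0.73, adjusted p = 0.0379 by limma). Bra020251 had 30555 and 27670 under 0D Ver and 38466 and 40219.8 under 35D Ver, a difference of 0.44 (interval 0.13 to 0.74, adjusted p = 0.0295 by limma). In both copies 0D Ver replicate 1 lay above replicate 2, and neither value reached the 35D Ver libraries. Both calls were lost without 0D Ver replicate 1 (adjusted p of 0.123 and 0.107 by limma) and without 0D Ver replicate 2 (0.256 and 0.214).

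The ubiquitin genes were higher too, and the 2 UBC21 copies were among the copies that changed most. Bra009857 (UBC21) had 261 and 264 normalized counts under 0D Ver and 425 and 393 under 35D Ver. Its means were 262 ± 1.85 and 409 ± 22.7 (SD, n = 2 each), and the log2 fold change was 0.64 (standard error 0.12, interval 0.37 to 0.90, adjusted p = 0.00321 by limma). Bra036549 (UBC21) had 266 and 288 under 0D Ver and 420.4 and 416 under 35D Ver, a difference of 0.59 (interval 0.33 to 0.86, adjusted p = 0.00436 by limma). Both UBC21 copies kept their call in all 15 alternative fits. The UBQ10 copy Bra029570 had 6628 and 7373 under 0D Ver and 10155 and 8869 under 35D Ver. Its groups did not overlap, although 35D Ver replicate 1 stood well above replicate 2, and the log2 fold change was 0.44 (interval 0.16 to 0.73, adjusted p = 0.0226 by limma). The adjusted p of Bra029570 was 0.158 without 0D Ver replicate 1, 0.0667 without 0D Ver replicate 2 and 0.0654 without 35D Ver replicate 1.

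TIP41-like and SAND were not called, and SAND was the only locus whose copies had lower means after the cold. The TIP41-like copy Bra011516 had 226 and 234 normalized counts under 0D Ver and 289 and 281 under 35D Ver. Its groups did not overlap, but the log2 fold change of 0.31 (interval 0.03 to 0.58) had an adjusted p of 0.0728 by limma. The SAND copy Bra000494 had 1023 and 943 under 0D Ver and 809 and 962 under 35D Ver, so that 35D Ver replicate 2 lay between the 0D Ver libraries. Its difference was -0.16 (interval -0.43 to 0.12, adjusted p = 0.331 by limma). The SAND copy Bra011952 had 943 and 887 under 0D Ver and 718 and 789 under 35D Ver, without overlap. Its log2 fold change was -0.28 (interval -0.53 to -0.03, adjusted p = 0.0690 by limma). The CVs of Bra000494 and Bra011952 were 9.68% and 12.0%, at ranks 2568 and 3544 of 8983.

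The log2 fold changes of the copies of a locus had the same sign. Summed over its copies, UBC21 had a ratio of the highest to the lowest library of 1.60, UBQ10 of 1.53, ACT2 of 1.49 and EF1A of 1.46. The ratio was 1.31 for GAPC1, 1.29 for SAND, 1.28 for TIP41-like and 1.16 for ACT7. The log2 ratio of the summed means, 35D Ver to 0D Ver, was 0.62 for UBC21, 0.50 for ACT2, 0.44 for UBQ10, 0.43 for EF1A, 0.36 for GAPC1, 0.31 for TIP41-like, 0.15 for ACT7 and -0.21 for SAND. For each pair of neighbours in this order the 95% intervals of their copies overlapped. Copies of near-identical sequence may not be separate measurements, since reads that fit several of them can be counted for each or split. In 39 groups of genes with a mean of at least 100 (84 of 20388 such genes) the deposited numbers were identical in all 4 libraries, and in all 39 the genes had the same Arabidopsis match. None of the 15 copies belonged to such a group, but nearly equal numbers occurred. The EF1A copy Bra006661 had deposited numbers of 38889 and 28051 under 0D Ver and 51314 and 54688 under 35D Ver. Bra030707, which matches AT1G07920 and is not 1 of the 15, had 39084 and 28374, and 51750 and 54684. Whether such genes shared reads was not tested.

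**Figure D3:**
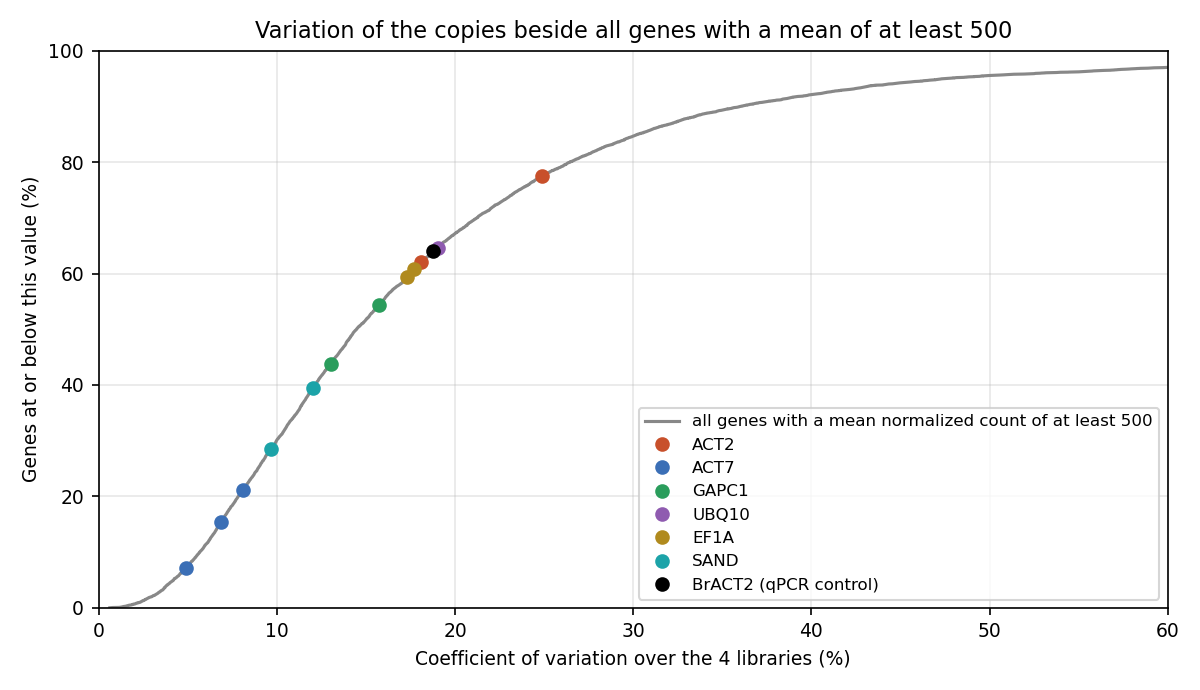
Cumulative share of the 8983 genes with a mean normalized count of at least 500 (y axis, percent) against their CV over the 4 libraries (x axis, percent, drawn up to 60), with the 12 reference copies at that level and Bra022356 marked on the curve. The 3 ACT7 copies lie lowest, between 4.89% and 8.11%, and the ACT2 copy Bra001722 lies highest at 24.9%, with Bra022356 at 18.8%.

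How alike the candidates were to each other was described without any scaling between libraries, as the mean SD of a gene's log2 ratios to the 15 other genes in the set of the copies and Bra022356. This measure was 0.140 for Bra026904 and 0.144 for Bra016729, both GAPC1, which were lowest in the set. The 15 others included any further copy of the same locus, which can lower the measure. UBQ10, TIP41-like and Bra022356 had no such partner, and the measure was not computed without these partners. It was 0.149 for the control gene Bra022356 and between 0.163 and 0.194 for the ACT7 copies. The SAND copies had the highest values, 0.324 for Bra000494 and 0.378 for Bra011952. The order is therefore unlike that of the CV, under which GAPC1 varied more than ACT7 and SAND. A ratio among references scores a gene by how it moves with the others, and here 13 of the 15 copies had the higher mean under 35D Ver.

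A qPCR scaled to BrACT2 follows whatever its primers amplify, which was not analysed here. As a counterpart in the read counts, each copy was divided by Bra022356 in the same library. Relative to it, Bra037560 (ACT2), UBQ10 and both EF1A copies changed by between -0.05 and -0.02 on the log2 scale, and for these 4 genes the conditions overlapped. The ACT7 copies had lower ratios after the cold, and the SAND copies more so. For Bra028615 (ACT7) the ratio was 1.19 and 1.21 under 0D Ver and 0.922 and 0.936 under 35D Ver, a log2 change of -0.37. For Bra011952 (SAND) it was 0.129 and 0.130 under 0D Ver and 0.0742 and 0.0797 under 35D Ver, a log2 change of -0.75. The ratio of Bra000494 (SAND) changed by -0.63. Of the 15 copies, only Bra001722 (ACT2) and the UBC21 copies had a higher mean ratio, by 0.16, 0.17 (Bra009857) and 0.13 (Bra036549), and the conditions overlapped for Bra036549. These ratios have no test. The GAPC1 copy Bra026904 changed by -0.07, and its conditions overlapped too. The higher means given for ACT7, GAPC1, UBQ10, EF1A, TIP41-like and Bra037560 held under TMM, median-of-ratios and total-count scaling. With Bra022356 as the scale their signs are negative by construction, because each of these copies had a smaller log2 fold change than Bra022356 itself.

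**Figure D4:**
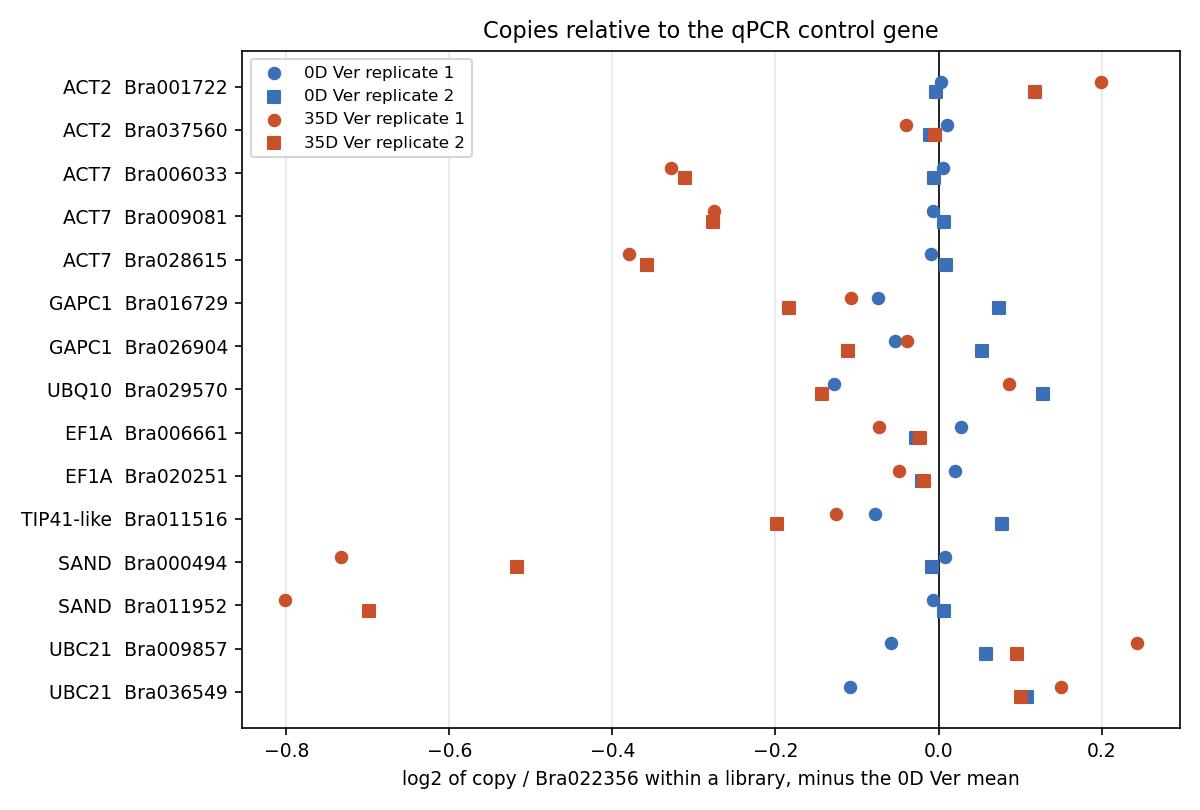
Log2 of the ratio of each copy to Bra022356 within a library, minus the mean of the 2 0D Ver libraries (x axis), with 1 point per library. The 35D Ver points of the ACT7 copies lie left of 0, with mean changes of -0.37 to -0.28, and those of the SAND copies lie farther left at -0.63 and -0.75, while Bra037560 (ACT2) and the EF1A copies lie close to 0.

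The choice of scale moved all genes together. With Bra022356 as the scale, the median log2 fold change over the 29691 tested genes was -0.48, against -0.01 with TMM. With the geometric mean of the 15 copies as the scale it was -0.32. These are shifts of the median by -0.47 and -0.31 on the log2 scale, while median-of-ratios and total-count scaling moved it by 0.02 and -0.01.

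Relatives of the reference genes in the same families were counted from a list of 23 loci, of which 17 had matches in 46 genes. Of the 45 tested, 18 were called higher and 1 lower by limma, with a median log2 fold change of 0.25. The interval lay inside -0.5 to 0.5 for 17. Over all 29691 tested genes, 20.1% were called higher, 20.5% lower and 23.8% had such an interval. A mean of at least 500 was reached by 29 of the 45, and at that level 26.1% of all genes were called higher and 39.4% had such an interval. Most of the calls came from GAPDH, EF1A and E2 genes. Of 11 GAPDH genes 7 were called higher and 1 lower, with a median of 0.53. The 2 largest increases were in Bra032939 (GAPA1, 0.65, adjusted p = 0.00420 by limma) and Bra026948 (GAPA2, 0.62, adjusted p = 0.00755), which encode chloroplast enzymes of the Calvin cycle. The adjusted p of Bra026948 was 0.0787 without 0D Ver replicate 1 and 0.0636 without 0D Ver replicate 2. The genes matching GAPCP1, a plastid enzyme of glycolysis, went in opposite directions. Bra019722 differed by 0.28 and was not called (adjusted p = 0.0814 by limma). The gene called lower was Bra003606, at -0.35 (adjusted p = 0.0347 by limma). Its adjusted p was 0.0996 without 0D Ver replicate 1, 0.145 without 0D Ver replicate 2 and 0.174 without 35D Ver replicate 1.

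Of 8 other EF1A genes 7 were called higher, between 0.25 and 0.44 for all 8. Of 3 E2 genes matching UBC10 all 3 were called higher (median 0.54). The 7 called EF1A genes all matched EF1A-1 and lay between 0.40 and 0.44, and the 3 E2 genes lay between 0.52 and 0.54. Reads that fit several such copies may be counted for each, so these calls may not be separate measurements. Nor may the EF1A-1 calls be separate from those of the EF1A copies given above. The 1 polyubiquitin gene, matching UBQ4, differed by 0.30 and was not called. The listed actins other than ACT2 and ACT7 gave few calls, with 1 of 15 called higher, 9 intervals inside the band and a median of 0.15. Of these 15 genes, 3 had a mean of at least 500. The list did not hold the control gene Bra022356, which was called higher at 0.47 with an interval of 0.21 to 0.73. The scaffold subunits PP2AA1 and PP2AA2, paralogs of the unmatched PP2AA3, gave 0 calls by limma among 7 tested, 1 of them lower at an unadjusted p below 0.05. Of these 7 intervals 6 lay inside the band, and the median was -0.06. The PP2AA1 copies Bra024741 and Bra012474 had the lowest CVs of the relatives with a mean of at least 500, 3.93% and 4.36%. Bra024741 had 616 and 577 normalized counts under 0D Ver and 586 and 562 under 35D Ver, so that the groups overlapped. The number of relatives called was 2 without 0D Ver replicate 1 and 4 without 0D Ver replicate 2.

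Further reference genes in common use, 29 loci of which 26 had matches in 61 genes, moved in both directions. Of 59 tested, 20 were called higher and 9 lower by limma, with a median of 0.16, and 9 had an interval inside the band. The shares over all tested genes were 20.1% higher, 20.5% lower and 23.8% inside the band. A mean of at least 500 was reached by 40 of the 59. Of 27 tubulin genes 10 were called higher and 4 lower, and 2 of the higher ones, the TUB4 genes Bra003116 and Bra012923, had identical deposited numbers in all 4 libraries and so count 1 measurement 2 times. The genes matching EIF4A1, a translation initiation helicase, were called higher in 7 of 8 cases, led by Bra030892 (0.82, adjusted p = 0.00144 by limma). Cyclophilins gave 1 higher and 3 lower of 7, and the largest decreases of the list were both in ROC1. Bra033574 (ROC1) had 847 and 1099.7 normalized counts under 0D Ver and 338 and 279 under 35D Ver (log2 fold change -1.65, adjusted p = 0.000127 by limma). Bra010728 (ROC1) changed by -1.24 (adjusted p = 8.41e-05 by limma).

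Genes proposed for their even expression in Arabidopsis gave 2 higher and 2 lower calls among 17 tested, beside 40.6% called in either direction over all tested genes. Of these 17, 6 had a mean of at least 500. Bra009335 (YLS8) was higher by 0.81 (adjusted p = 0.000970 by limma). The lowest CVs of this wider list at a mean of at least 500 were 4.66% in Bra026443 (RHIP1) and 4.85% in Bra017537 (AP2M, a subunit of the clathrin adaptor complex). The AP2M genes Bra022052 and Bra025009 had CVs of 6.96% and 9.39% and log2 fold changes of 0.15 and 0.22. At lower means, Bra019108 (RHIP1, mean 218) differed by 0.17 and Bra029130 (AP2M, mean 67.8) by -0.09. None of these further copies was called by limma. Bra026443 had 517 and 557 normalized counts under 0D Ver and 518 and 564 under 35D Ver, a difference of 0.01 (interval -0.25 to 0.27, adjusted p = 0.950 by limma). The number of these wider reference genes called was 19 without 0D Ver replicate 1 and 10 without 0D Ver replicate 2.

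Over all 8983 genes with a mean of at least 500, the 3 lowest CVs were 0.626% in Bra032190 (match AT1G43710), 0.666% in Bra003652 (AT1G78240) and 0.679% in Bra033381 (AT1G03270). They were picked as the extremes of these 4 libraries and have no test. Bra032190 had 1269 and 1264 normalized counts under 0D Ver and 1278 and 1259 under 35D Ver. The 3 tested genes whose centred log2 profile over the 4 libraries lay nearest to that of Bra022356 were Bra031017 (AT3G14720), Bra038938 (AT5G35180) and Bra024143 (AT4G29510), at Euclidean distances of 0.0090, 0.0133 and 0.0210 log2 units.

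Of the 8 calls among the copies, those of Bra001722, Bra009857 and Bra036549 held without any 1 of the 4 libraries, and the other 5 were lost when either 0D Ver replicate 1 or 0D Ver replicate 2 was left out. Without 0D Ver replicate 1 the number called higher was 3, and without 0D Ver replicate 2 it was also 3, against 7 without 35D Ver replicate 1 and 9 without 35D Ver replicate 2. Over all 29691 genes the number called was 12042 with all libraries, 7584 without 0D Ver replicate 1 and 7548 without 0D Ver replicate 2. The number of intervals of the copies inside -0.5 to 0.5 was 4 with all libraries. It was lower without 0D Ver replicate 1, without 0D Ver replicate 2 and without 35D Ver replicate 2. Leaving out a library leaves 1 sample in that condition, which is then assumed to vary like the others.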

How the data were processed

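The authors trimmed the reads, used Bowtie2 to map them to the BRAD gene set of B. rapa (version 1.5) and deposited 1 whole number per gene and library, without normalization. How reads that map to several genes were counted is not given in the sources used here, and edgeR is named in the submitters' processing notes without a role. The deposited numbers carry commas, which were removed, and their lowest value is 1 in every library, so they were recorded as another unit than counts and a log-scale test was used in place of a count model.

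Size factors were computed by TMM over the tested genes (trims of 0.3 and 0.05). Genes with at least 10 counts in 2 libraries, after scaling to the median library, and at least 15 in total were kept. In R 4.3.3, limma 3.58.1 was run on log2(normalized count + 1) with the options trend and robust and no covariate besides condition. Adding 1 understates changes of low genes. The steps were run on simulated data in which few genes changed, all genes had the same dispersion and libraries were drawn independently. These data differ from that setting, so the run gives no error rate for them. Figures were drawn with matplotlib 3.10.9.

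Named were every copy, Bra022356, in each wider list the 2 largest increases and decreases called and the 2 lowest CVs at a mean of at least 500, and over all genes the 3 lowest CVs and the 3 profiles nearest to Bra022356. The members and lists, marker lists included, were chosen with earlier results of these data known. Alternatives were other scaling, filters, pseudocount, moderation, voom weights, bounds, a replicate block and leaving out each library. Gene lengths and sequences of this gene set were not used here, so levels of different genes are not compared.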

Additional observations from a re-analysis of the deposited data

How the results depend on the processing

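With 2 libraries per condition, limma borrows the spread from all genes, and the lowest mean of a copy was 257 normalized counts. Other scaling, filters, a pseudocount of 0.1, subtracting 1 and voom weights left 8 or 9 copies called, and without robust moderation 6 were called. The calls of Bra001722, Bra009857 and Bra036549 held in all 15 alternative fits, with no threshold on the log2 fold change. Leaving out 1 library gave 3 to 9 copies called, 1 to 4 intervals inside 0.5, 7548 to 9818 genes called of all, 2 to 19 relatives and 10 to 25 wider reference genes. With a log2 fold change of at least 1 also required, 0 copies and 4076 of all genes were called, and 0 intervals lay inside 0.3. Without robust moderation 11 relatives were called. The cause of these shifts was not tested.

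Replicate numbers are shared between the conditions, but deviations of same-numbered libraries had a correlation of -0.17, so the numbers were not taken to pair them. With a replicate block, 3 copies, 10 relatives, 22 wider reference genes and 10334 of all genes were called, and 2 intervals lay inside 0.5. A crossed block, added after seeing the data, gave 9 copies called higher, 1 lower (the SAND copy Bra011952) and 14317 genes called.

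Apart from the division by Bra022356, signs turned in 4 of the named genes, all near 0. Leaving out 1 library gave -0.10 to 0.0061 for Bra012474, -0.052 to 0.073 for Bra026443, -0.0087 to 0.013 for Bra032190 and -0.0012 to 0.017 for Bra003652. Bra032190 was also at -0.0056 with total counts only and at -0.00010 with 1 subtracted from every deposited number. TMM over all listed genes, also added later, called 9 copies.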
